A study of Mus musculus with 6 samples.

Results

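Open chromatin was followed at 43 genes of the BMP and TGF-β pathway in 3 populations of keratinocytes sorted from mouse back skin. Each library was a list of ATAC-seq peaks, from an assay in which a transposase cuts and tags accessible DNA. Overlapping peaks of the 6 libraries were merged into 75738 consensus regions, of which 62802 lay within 50 kb of a protein-coding gene and were given to the nearest one. The 43 genes were listed by name for their place in the pathway, with earlier results of these data known. Of the 62802 regions, 323 belonged to them. A region is called open in a library that had a peak in it and closed where none was called. The lists hold no read counts or heights, so depth is unknown and a missing peak is not proof of closed chromatin.

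All mice carried TNC-CREER, a tamoxifen-inducible Cre driven by the tenascin-C gene, with a tdTomato reporter, on a C57BL/6 background. Tamoxifen was injected on days 51 and 52 after birth, at 100 µg for each gram of weight, and skin was taken on day 60. No group was untreated. Touch dome (TD) cells, the keratinocytes of the small sensory patches that house Merkel cells, were positive for EPCAM, SCA1, α6-integrin and tdTomato. The cells of the interfollicular epidermis (IFE) had the same 3 surface markers and no tdTomato. Those of the hair follicle (HF) carried EPCAM and α6-integrin and lacked both SCA1 and tdTomato. A touch dome cell here is therefore any SCA1-positive basal cell in which the Tnc-driven Cre had acted. Each population had 2 libraries of 50000 cells. The labels do not say whether these came from separate animals, so their spread may be technical.

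BMP and TGF-β ligands are secreted dimers that bring type I and type II receptor kinases together. The receptors phosphorylate Smad proteins, which join Smad4 and enter the nucleus. BMP signals run through Smad1, Smad5 and Smad9 and switch on the Id genes, while TGF-β and activin signals run through Smad2 and Smad3. Secreted antagonists and the inhibitory Smads limit the signal, while latent TGF-β binding proteins such as Ltbp1 anchor latent TGF-β in the matrix. In skin, BMP is known for holding hair follicle stem cells quiescent and TGF-β for restraining keratinocyte growth.

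The libraries held 50153 and 59250 peaks in TD, 52219 and 51124 in IFE, and 54844 and 57131 in HF. Of 17 regions at Tnc, 17 were open in each TD library, 11 in each IFE library and 13 and 12 in HF. Of 5 regions at Ly6a, a SCA1 gene, 4 were open in each TD, 5 in each IFE and 2 in each HF library. The IFE list (Ly6a, Krt10, Grhl3 and Ivl) had 28 and 25 of 29 regions open in IFE, 23 and 25 in TD and 19 and 18 in HF. IFE and TD thus touched at 25. Krt10 went the other way from HF, with 3 of 4 regions open in each TD and IFE library and 4 in each HF library. The touch dome list (Tnc, Cadm1, Hhip and Ptch1) had 46 and 50 of 66 regions open in TD and 30 and 30 in IFE, but 55 and 48 in HF, so it set TD apart from IFE and not from HF. The hair follicle list (Lhx2, Lgr5, Nfatc1, Cd34 and Sox9) had 61 and 64 of 73 in HF, 45 and 55 in TD and 39 and 39 in IFE. Keratinocyte genes (Krt5, Krt14, Trp63, Epcam and Itga6) had 47 to 61 of 73 regions open per library. Fibroblast genes (Col1a1, Col1a2, Pdgfra and Twist2, with no region at Lum) had 14 and 14 of 15 regions open in HF, against 8 and 10 in TD and 5 and 3 in IFE. Melanocyte genes had 21 and 21 of 24 in HF, 18 and 21 in TD and 13 and 14 in IFE, with no region at Tyr or Kit. Endothelial genes had 24 and 25 of 28 in HF, 15 and 17 in TD and 18 and 16 in IFE, with none at Cdh5 or Kdr. Immune genes had 2 regions, open in both TD libraries (2 and 2), partly in IFE (1 and 1) and not in HF (0 and 0). Schwann cell genes had 2 and 2 of 2 in TD, 2 and 1 in IFE and 2 and 2 in HF. Merkel cell genes had 4 and 7 of 12 in TD, 6 and 4 in IFE and 8 and 10 in HF. The part that such cells play in the results below was not tested.

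Of the 323 regions, the TD libraries had 222 and 245 open, the IFE libraries 228 and 216, and the HF libraries 242 and 254. These are 68.7% and 75.9% in TD, 70.6% and 66.9% in IFE and 74.9% and 78.6% in HF. Over all regions near genes the shares were 66.5% and 78.4%, 71.2% and 68.7%, and 72.4% and 74.8%, so HF was above IFE genome-wide too. HF libraries were highest on average, at 248 ± 8.49 regions (SD, n = 2), then TD at 234 ± 16.3 and IFE at 222 ± 8.49, and one TD library lay above one HF library. The IFE and HF libraries did not overlap (difference -26.0 regions, exact two-sided permutation p = 0.333, the smallest that 2 against 2 libraries can give). TD differed from IFE by 11.5 and from HF by -14.5 regions (exact two-sided permutation p = 0.667 for each). The TD and IFE difference was 0 without TD replicate 2, which had the most peaks, and 23.0 without TD replicate 1. The TD and HF difference was -26.0 and -3.00 in the same 2 cases. With equal numbers of the widest peaks from every library the TD and HF difference was 1.5 and the IFE and HF difference -2. With the wider 50% of each library's peaks they were 2.5 and -1.5 (exact two-sided permutation p = 1.00 for each).

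In all, 156 regions (48.3%) were open in all 6 libraries, against 48.2% of all regions near genes. Another 27 (8.36%) were open in HF alone, against 6.22%, and 23 (7.12%) in TD and IFE but not HF, against 6.31%. TD and HF shared 14 (4.33%, against 3.28%) that were closed in IFE. Regions of a single epidermal population were few, with 4 for TD (1.24%, against 0.967%) and 6 for IFE (1.86%, against 1.22%). IFE and HF shared 2 (0.619%, against 0.336%). In the other 91 (28.2%, against 33.5%) the libraries of at least 1 population disagreed. These shares lie near the genome-wide ones, and the roles differed in how many follicle and how many epidermal regions they held.

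**Figure D1:**
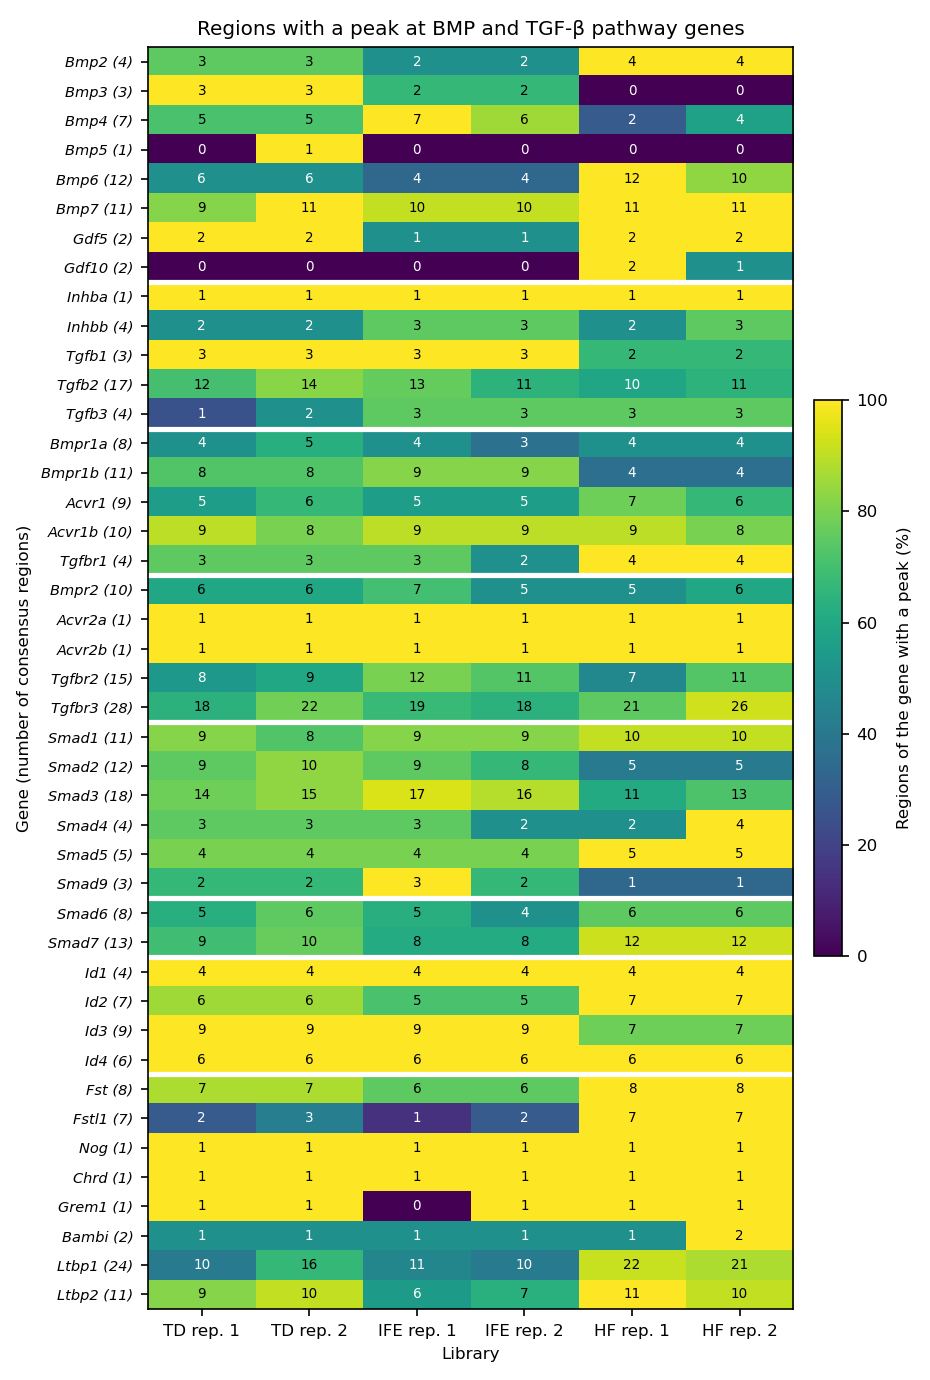
Heat map of the 43 genes (rows, grouped by role from ligands at the top to antagonists at the bottom, number of regions in brackets) in the 6 libraries (columns). Colour is the percentage of a gene's regions with a peak and the printed figure is their number. Bmp3 has 0 of 3 regions open in both HF libraries, while Fstl1 has 7 of 7 there and 1 to 3 in the others.

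A region separates a pair of populations when both libraries of one and neither of the other had a peak. At the 43 genes 51 regions (15.8%) were open in HF and closed in IFE, against 12.8% of all regions near genes, and 30 (9.29%) showed the reverse, against 9.91%. HF against TD gave 31 HF regions (9.60%, against 7.26%) and 30 TD regions (9.29%, against 8.02%). TD against IFE gave 19 TD regions (5.88%, against 4.48%) and 8 IFE regions (2.48%, against 1.82%). Leaving out a library loosens the criterion and adds regions by construction. The count of 19 became 33 without TD replicate 1 (10.2%, against 10.9% of all regions), so the members' share was then below that of all regions. The count of 8 became 18 without TD replicate 2 (5.62%, against 6.70%) and 18 without IFE replicate 2 (5.61%, against 5.06%). The HF count of 31 became 48 without TD replicate 2 (15.0%, against 13.9%). The TD count of 30 against HF became 36 without TD replicate 1 (11.1%, against 13.9%). It stayed 30 without TD replicate 2 (9.38%, against 9.65%), so both shares were below those of all regions. Without HF replicate 1 (10.2%, against 9.79%) or HF replicate 2 (13.2%, against 10.3%) it was above. Of the 19 TD regions 14 had a peak in both HF libraries too, and of 2814 such regions genome-wide 73.1% were. In all, 93 regions at 31 of the 43 genes separated at least 1 pair. The 12 genes without one were Bmp5, Inhba, Acvr1, Acvr2a, Acvr2b, Smad4, Id1, Id4, Nog, Chrd, Grem1 and Bambi.

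**Figure D2:**
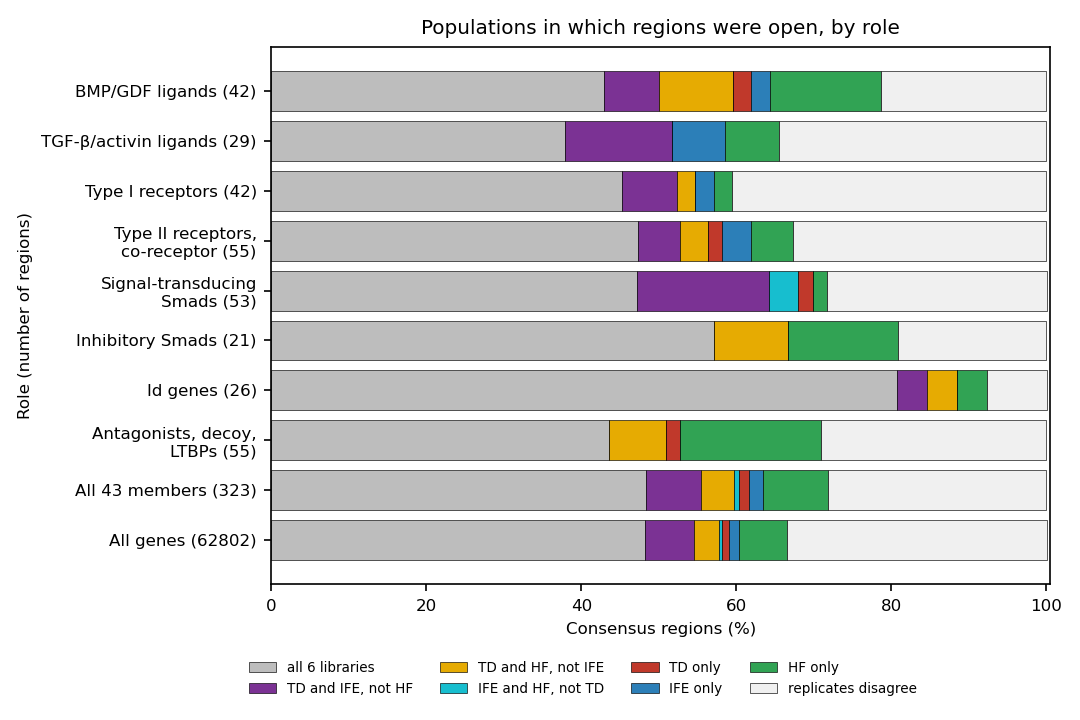
Stacked bars of the share of consensus regions (x axis, percent) by the populations in which they were open, for 8 roles, all 43 genes and all genes (y axis, number of regions in brackets). Regions open in HF alone make up 18.2% of the antagonist group, which includes the decoy receptor and latent TGF-β binding proteins, and 1.89% of the signal-transducing Smads. Regions shared by TD and IFE but not HF make up 0 and 17%.

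Promoters are shown first because 5 of them differed between libraries. RefSeq windows from 250 bases before to 50 after a start (GRCm38.p6, the assembly behind mm10) were matched for 30 of the 43 genes. A peak lay over a window in all 6 libraries at 23 genes (76.7%), against 53.0% of 17492 protein-coding genes. Bmp5 and Bmpr1b had no peak over a window in any library, and the 3 listed starts of Bmpr1b lie inside its span, not at its end. Gdf10 had one in both HF libraries and no other. Fstl1 had one in HF replicate 1, while the HF replicate 2 peak in the same region missed the window. Grem1 had one in both TD and both HF libraries and in neither IFE library. Bmp4 had one in all libraries but HF replicate 1, and Inhba in all but TD replicate 1 and IFE replicate 1. The 250 bases before the start follow for the first 4 of these variable promoters and for Id2, a BMP target open everywhere, each on its gene's strand. Gdf10 is at chr14:33923337-33923586 (+), Fstl1 at chr16:37776805-37777054 (+), Grem1 at chr2:113758649-113758898 (-), Bmp4 at chr14:46390670-46390919 (-) and Id2 at chr12:25096093-25096342 (-). Capitals mark GGCGCC, the GC-rich element bound by Smad1 and Smad5.
Gdf10: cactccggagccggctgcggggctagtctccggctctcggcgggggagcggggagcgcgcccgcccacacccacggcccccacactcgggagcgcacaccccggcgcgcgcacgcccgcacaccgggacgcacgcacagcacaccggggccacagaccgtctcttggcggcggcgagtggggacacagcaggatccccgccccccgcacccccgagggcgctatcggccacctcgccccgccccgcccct
Fstl1: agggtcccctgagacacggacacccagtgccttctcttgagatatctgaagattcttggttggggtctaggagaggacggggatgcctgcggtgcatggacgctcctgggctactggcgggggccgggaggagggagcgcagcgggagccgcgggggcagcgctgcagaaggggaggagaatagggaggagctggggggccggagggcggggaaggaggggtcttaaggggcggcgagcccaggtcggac
Grem1: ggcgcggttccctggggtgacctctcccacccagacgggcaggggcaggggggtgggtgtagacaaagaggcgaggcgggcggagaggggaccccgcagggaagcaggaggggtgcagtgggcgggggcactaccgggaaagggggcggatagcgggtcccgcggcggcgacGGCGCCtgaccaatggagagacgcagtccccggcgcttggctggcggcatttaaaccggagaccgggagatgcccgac
Bmp4: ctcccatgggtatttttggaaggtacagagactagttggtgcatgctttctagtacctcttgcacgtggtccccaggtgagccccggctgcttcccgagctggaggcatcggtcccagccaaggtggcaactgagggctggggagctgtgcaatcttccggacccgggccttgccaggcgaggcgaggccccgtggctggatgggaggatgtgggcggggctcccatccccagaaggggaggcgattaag
Id2: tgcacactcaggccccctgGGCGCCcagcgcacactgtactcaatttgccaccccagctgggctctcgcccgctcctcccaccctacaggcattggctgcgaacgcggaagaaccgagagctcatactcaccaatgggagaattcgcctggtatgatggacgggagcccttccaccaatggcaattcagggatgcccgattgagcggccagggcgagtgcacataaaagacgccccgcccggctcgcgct

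Grem1 held GGCGCC from 78 bases before its start and Id2 from 231 bases before it, and Gdf10 held it 17 bases after the start. On both strands, GGCGCC was in 12 of 36 member windows (33.3%) and in 15.3% of 21263 protein-coding windows. Among windows with a peak in all 6 libraries the shares were 38.5% (10 of 26) and 23.3%, and median GC content was 67.3% and 62.3%. Overlapping windows of Smad5 held the same site, which was thus counted more than once in the 12 and in the 10. The member genes that held it were Acvr1b, Bmpr1a, Bmpr2, Chrd, Gdf10, Grem1, Id2, Id4, Smad5, Smad9 and Tgfbr1. CAGACA, a Smad3 and Smad4 element, was in 6 of 36 (16.7%, against 18.9%), and GGCGCC followed after 5 bases by GTCT in 0 (against 0.0847%). The AP-1 letters TGANTCA were in 0 of 36 (against 6.99%), the RUNX letters TGTGGT in 1 (2.78%, against 15.0%) and the homeodomain letters TAATTA in 0 (against 4.53%). CpG content was lower in windows without a peak of their own. The 5 such windows, of Bmp5, Bmpr1b and the downstream start of Tgfbr1, had observed over expected CpG ratios of 0.148 to 0.291. The 26 windows with a peak in all 6 libraries had 0.375 to 1.14 (median 0.781) and the 5 variable ones 0.419 to 0.959 (median 0.684), so neither range overlapped the first. Of the 5 windows without a peak 3 were of Bmpr1b, so they are not 5 separate promoters. Over all protein-coding windows the medians were 0.213 without a peak and 0.795 with one in all 6. There the ranges, 0 to 5.29 and 0 to 1.44, overlapped.

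The BMP and GDF ligand genes split, with Bmp6, Bmp2 and Gdf10 on the follicle side and Bmp3 and Bmp4 on the epidermal side. Their 42 regions included 11 open in HF and closed in IFE (26.2%, beside 12.8% of all regions) and 4 the reverse (9.52%, beside 9.91%). TD held 5 regions closed in IFE (11.9%, beside 4.48%) and IFE held 1 closed in TD (2.38%, beside 1.82%). Bmp6, a ligand made by epidermal cells, had 6 and 6 of 12 regions open in TD, 4 and 4 in IFE, and 12 and 10 in HF, so the HF libraries stood above the others without overlap. HF alone held 4 of these, at chr13:38310063-38310642, 35.1 kb before the start, and inside the gene at chr13:38364206-38364808, chr13:38366032-38366508 and chr13:38410385-38411045. TD and HF shared a further 2 that IFE lacked, 27.1 kb before the start and 73.9 kb after it, and its promoter was open in all 6 libraries. The HF-alone regions were narrow, with 331 to 603 bp under peaks, and the net counts of 6 for HF over IFE and 4 for HF over TD were both 0 with the wider 50% of peaks. With equal numbers of the widest peaks the second was 2.

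Bmp2, a ligand that acts in hair growth, had 3 and 3 of 4 regions open in TD, 2 and 2 in IFE and 4 and 4 in HF. The region at chr2:133546749-133547503 was shared by TD and HF, and that at chr2:133567208-133567902 was open in HF alone. Gdf10, also called Bmp3b, had no peak in TD or IFE. Its promoter region, chr14:33923168-33924354, held 1187 bp of peak in HF replicate 1 and 297 bp in HF replicate 2, and a second region had a peak in HF replicate 1. The promoter region also covers the start of Gm30031, so either start could be the open one. Gdf5, a joint and cartilage ligand, had 1 region open in all 6 libraries and 1, chr2:155945164-155946379, open in TD and HF and closed in IFE. Bmp7, widely expressed in epithelia, had 9 and 11 of 11 open in TD, 10 and 10 in IFE and 11 and 11 in HF, with 1 region closed in IFE and open in HF.

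Bmp3, an atypical BMP that can oppose the others, had no peak in HF. Both TD libraries had peaks in 3 of its 3 regions, both IFE libraries in 2 and both HF libraries in 0. These were wide: chr5:98844100-98847255, 7160 bp outside the gene, had 2729 and 3042 bp under peaks in TD and 3140 and 2848 bp in IFE. The region over the lower-coordinate end of the gene, chr5:98854310-98856425, had 2021 and 1934 bp in TD and 2102 and 1692 bp in IFE. The third, chr5:98862567-98864273 inside the gene, was open in TD alone, with 399 bp in replicate 1 and 1449 bp in replicate 2. No other ligand gene had a region open in TD alone, and the net count of 3 for TD over HF was 3 with each TD or HF library left out.

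Bmp4, the ligand of the dermal papilla and hair germ, had 5 and 5 of 7 regions open in TD, 7 and 6 in IFE and 2 and 4 in HF. Both of its regions open in IFE and closed in HF lay far upstream: chr14:46439216-46440136, 48.5 kb before the start, was also open in TD, and chr14:46434020-46434507, 43.4 kb before it, was open in IFE alone. At the promoter region the peaks covered 1250 and 1382 bp in TD and 1374 and 1299 bp in IFE, against 592 bp in HF replicate 2 and no peak in HF replicate 1. HF had no more Bmp4 regions open than 4, against at least 5 in TD and IFE. Its peaks were not narrower at every region, since at chr14:46386861-46388064, inside the gene, they covered 1010 and 1167 bp in HF, 957 and 877 bp in TD and 954 and 920 bp in IFE. The 1 region of Bmp5 was called in TD replicate 2 alone.

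The TGF-β and activin ligand genes leaned to the epidermal side. Of their 29 regions 7 were open in IFE and closed in HF (24.1%, beside 9.91%) and 2 the reverse (6.90%, beside 12.8%). Tgfb2 had 12 and 14 of 17 regions open in TD, 13 and 11 in IFE, and 10 and 11 in HF, so the groups touched at 11. Against HF it held 4 regions open in both TD libraries and 4 in both IFE libraries, and TD and IFE shared 3 of these. One such region was chr1:186656263-186657698 inside the gene, with 671, 1061, 1436 and 928 bp under the TD and IFE peaks. In the other direction 2 regions were open in HF and closed in TD, and 1 was open in HF and closed in IFE. The net count of 3 for IFE over HF was 1 without IFE replicate 1, 0 with the wider 50% of peaks and 5 with equal numbers of the widest. That of 2 for TD over HF was 1 without TD replicate 2, -1 with the wider 50% and 4 with equal numbers.

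Tgfb1, a widely expressed isoform, had 3 of 3 regions open in each TD and IFE library and 2 in each HF library, the difference being chr7:25705651-25706406 just past the gene. Tgfb3, known from palate fusion and scarless repair, had 1 and 2 of 4 open in TD and 3 in every IFE and HF library. Its populations did not share their extra region, since chr12:86060943-86061541 was open in IFE alone and chr12:86071368-86071743 in HF alone. Inhbb, an activin subunit, had 2 and 2 of 4 open in TD, 3 and 3 in IFE and 2 and 3 in HF, with a region at chr1:119388970-119389471 open in IFE alone. Inhba, the other activin subunit listed, had 1 region, open in all 6 libraries.

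Among type I receptors, which pass the signal to Smads, Bmpr1b stood on the epidermal side. Bmpr1b had 8 and 8 of 11 regions open in TD, 9 and 9 in IFE and 4 and 4 in HF, without overlap between HF and the rest. The 3 regions shared by TD and IFE and closed in HF were chr3:141947817-141949126, chr3:142037980-142038871 and chr3:142040041-142040975, all inside the gene, with 465 to 1310 bp under peaks in TD and IFE. With the wider 50% of peaks the net count of 3 for TD over HF was 1. None of its 3 listed starts carried a peak in any library, and its called peaks lay away from them. These starts lie inside the gene span. The region over the upstream end of that span, chr3:142168478-142169620, was open in all 6 libraries. Bmpr1a, the BMP receptor needed for hair differentiation, had 4 and 5 of 8 open in TD, 4 and 3 in IFE and 4 and 4 in HF, and the groups overlapped. It had 2 regions open in TD and closed in HF, both with a peak in IFE replicate 1, and 1 open in HF and closed in IFE.

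Acvr1b, an activin receptor, had 8 or 9 of 10 regions open in each library. The region chr15:101210091-101210945 was shared by TD and HF, and chr15:101177046-101177532 was open in IFE alone. Tgfbr1, the type I receptor for TGF-β, had 3 and 3 of 4 regions open in TD, 3 and 2 in IFE and 4 and 4 in HF, with chr4:47361259-47361856 open in HF alone. Acvr1 had 5 to 7 of 9 regions open per library and no region that separated a pair. Over the 42 type I receptor regions 4 were open in IFE and closed in HF (9.52%) and 3 the reverse (7.14%), beside 9.91% and 12.8%.

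Type II receptors, the kinases that first bind many of these ligands, differed among themselves. Tgfbr2, required for TGF-β signalling, had 8 and 9 of 15 regions open in TD, 12 and 11 in IFE and 7 and 11 in HF. IFE alone held chr9:116150774-116151153 and chr9:116159263-116160123, both inside the gene, and TD and IFE shared chr9:116166683-116168387. This gave 2 IFE regions closed in TD, the most among the 43 genes. Its net count of 3 for IFE over HF was 0 without HF replicate 1 and 1 with the wider 50% of peaks. Bmpr2 had 6 and 6 of 10 open in TD, 7 and 5 in IFE and 5 and 6 in HF, with 1 TD-alone region, chr1:59880385-59880883, 2304 bp past the gene, 1 HF-alone region, chr1:59796841-59797435, and 1 shared by TD and IFE, chr1:59755095-59756001. Acvr2a and Acvr2b, the activin receptors, each had 1 region, over the promoter and open in all 6 libraries.

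Tgfbr3, the co-receptor betaglycan that presents TGF-β2, had the most regions of the 43 genes, with 18 and 22 of 28 open in TD, 19 and 18 in IFE and 21 and 26 in HF. Against IFE 5 were open in HF and 1 the reverse. Of the 5, TD shared chr5:107079223-107080485 outside the gene and chr5:107194999-107196336 inside it. The net count of 4 for HF over IFE was 8 without HF replicate 1, 1 with the wider 50% of peaks, 1 with equal numbers of the widest peaks and 0 within 10 kb of the gene.

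The signal-transducing Smad genes had more regions closed in HF than open there alone. Of their 53 regions 9 (17%) were shared by TD and IFE and closed in HF, beside 6.31% of all regions, while 1 (1.89%, beside 6.22%) was open in HF alone. Smad2, which carries TGF-β and activin signals, had 9 and 10 of 12 regions open in TD, 9 and 8 in IFE and 5 and 5 in HF, so HF lay apart. The 4 regions shared by TD and IFE were chr18:76210526-76211181, chr18:76223223-76224034, chr18:76313639-76314266 and chr18:76349287-76350001, all outside the gene. Another, chr18:76358695-76359969, was open in TD alone, with 1237 and 1102 bp under the peaks. The shared regions were narrow, with 390 to 744 bp under each TD or IFE peak. Within 10 kb of the gene the net count was 1 for both IFE and TD over HF, and with the wider 50% of peaks it was -1 for IFE and 0 for TD.

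Smad3, the partner of Smad2 in TGF-β signalling, had 14 and 15 of 18 regions open in TD, 17 and 16 in IFE and 11 and 13 in HF. Again the HF libraries were the lowest, without overlap. Against HF, TD and IFE shared chr9:63674613-63675196, chr9:63677566-63678354 and chr9:63711578-63713608, all inside the gene. The last had 1984 and 1876 bp under peaks in TD and 911 and 578 bp in IFE, so it was also wider in TD. One region 1.73 kb after the start, chr9:63754950-63756263, was open in IFE and HF and closed in TD. The net count of 3 for IFE over HF was 5 without HF replicate 2 and 1 with the wider 50% of peaks. For TD over HF the net count of 2 was 0 with a window of 100 kb, 1 with the wider 50% and 4 where a peak had to cover 50% of the region.

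Of the BMP Smads, Smad9 followed the same side and Smad1 and Smad5 did not. Smad9 had 2 and 2 of 3 regions open in TD, 3 and 2 in IFE and 1 and 1 in HF, with chr3:54772936-54773652 shared by TD and IFE. Smad1 had 9 and 8 of 11 open in TD, 9 and 9 in IFE and 10 and 10 in HF. It had 1 region shared by TD and IFE, chr8:79351520-79352228, 1 shared by IFE and HF, chr8:79330838-79331554, and 2 open in HF and TD replicate 1 but closed in IFE. Smad5 had 4 of 5 regions open in every TD and IFE library and 5 in both HF libraries, the extra one being chr13:56689613-56690067. Smad4, the common partner, had 2 to 4 of 4 regions open and no separating region. With all peaks 9 of 53 Smad regions were open in IFE and closed in HF (17%, beside 9.91%). With the wider 50% of peaks 2 of 30 were (6.67%, beside 8.42%), and the share was no longer above that of all regions. With equal numbers of the widest peaks it stayed above, at 11 of 51 (21.6%, beside 12.2%). In that setting 11 of 51 were open in TD and closed in HF (21.6%, beside 8.50%).

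The inhibitory Smads showed the reverse lean. Of their 21 regions 5 were open in HF and closed in IFE (23.8%, beside 12.8%) and 0 the other way. Smad7, which blocks TGF-β and BMP receptors and is induced by both, had 9 and 10 of 13 regions open in TD, 8 and 8 in IFE and 12 and 12 in HF, without overlap between HF and the others. HF alone held chr18:75357751-75358332, chr18:75373459-75374239 and chr18:75383249-75383953, and TD and HF shared chr18:75411660-75412485. With the wider 50% of peaks the net counts of 4 for HF over IFE and 3 for HF over TD were 0. Smad6, which mainly limits BMP signals, had 5 and 6 of 8 open in TD, 5 and 4 in IFE and 6 and 6 in HF, with chr9:64000955-64001809 shared by TD and HF. Smad3 and Smad6 lie 195 kb apart on chromosome 9, and Smad7 and Smad2 845 kb apart on chromosome 18. Of the 5 separating regions of Smad2, 4 were shared by TD and IFE and 1 was open in TD alone, while of the 4 of Smad7, 3 were open in HF alone. Smad6 had 1, open in TD and HF.

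**Figure D3:**
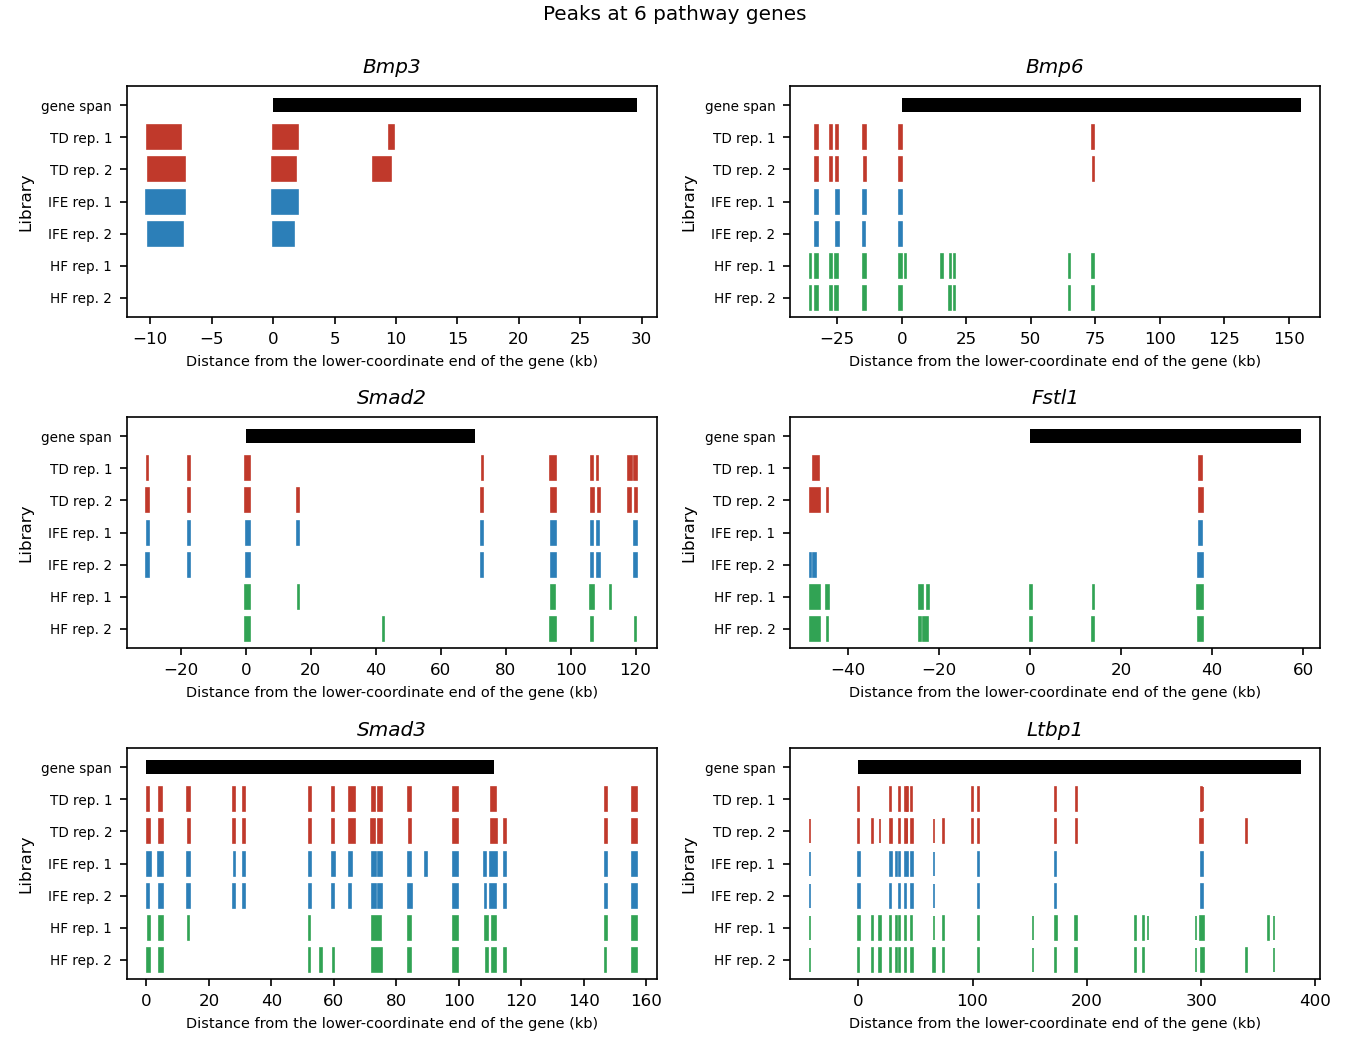
Maps of peaks (coloured bars, x axis in kb from the lower-coordinate end of each gene, black bar for the gene span) in the 6 libraries (y axis) at Bmp3, Smad2 and Smad3 on the left and Bmp6, Fstl1 and Ltbp1 on the right. At Bmp3 the HF rows are empty, and at Fstl1 the HF rows hold 7 regions against 1 to 3 in the other libraries.

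The Id genes, direct BMP targets that encode inhibitors of bHLH factors, were open in every population. Of their 26 regions 21 (80.8%) were open in all 6 libraries, beside 48.2% of all regions. Id1 had 4 of 4 and Id4 6 of 6 regions open in each library. Id3 had 9 of 9 in each TD and IFE library and 7 in each HF library, and chr4:136106736-136107114, 36.7 kb before its start, was shared by TD and IFE. Id2 had 6 and 6 of 7 in TD, 5 and 5 in IFE and 7 and 7 in HF. Its region chr12:25100577-25101074, 4.49 kb before the start, was open in HF alone, and chr12:25143062-25144043, 47.0 kb before it, was shared by TD and HF. Peaks at the promoter region of Id2 covered 2706 and 3028 bp in TD, 2265 and 2501 bp in IFE and 3816 and 3171 bp in HF, so they were widest in HF and narrowest in IFE, while the promoter sequence printed above was under a peak in each library.

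Of the 8 roles, the antagonists, decoy receptor and latent TGF-β binding proteins had the largest share of regions open in HF and closed in IFE. Of their 55 regions 52 and 51 were open in HF, 32 and 40 in TD and 27 and 29 in IFE. In all, 19 (34.5%, beside 12.8%) were open in HF and closed in IFE and 0 (beside 9.91%) the reverse. Against TD the counts were 11 for HF (20%, beside 7.26%) and 1 for TD (1.82%, beside 8.02%), and the 11 became 18 without TD replicate 2 (32.7%, beside 13.9%). With the wider 50% of peaks 11 of 31 regions were open in HF and closed in IFE (35.5%, beside 11.1% of all regions). Where each library gave the same number of its widest peaks, 12 of 51 were (23.5%, beside 11.0%). The 19 came from 4 genes, 9 from Ltbp1, 5 from Fstl1, 3 from Ltbp2 and 2 from Fst. Fibroblast genes moved the same way, with 8 of 15 regions open in HF and closed in IFE and 0 the reverse. So did hair follicle genes (22 of 73 and 4) and touch dome genes (23 of 66 and 5). Merkel cell genes (4 of 12 and 0) did so through Piezo2 alone, with 4 of the 4 and 0 at Atoh1, Isl1 and Krt20. Melanocyte genes (9 of 24 and 1) did so mainly through Mitf, with 8 of the 9. Endothelial genes (9 of 28 and 1) did so through Erg alone, with 9 of the 9 and 0 at Pecam1. Keratinocyte genes (5 of 73 and 11), IFE genes (1 of 29 and 7) and immune genes (0 of 2 and 1) did not. Schwann cell genes had 0 of 2 and 0. The part of such cells in the result was not tested.

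Ltbp1, which anchors latent TGF-β in the matrix, had 10 and 16 of 24 regions open in TD, 11 and 10 in IFE and 22 and 21 in HF. HF alone held 5, all inside the gene, among them chr17:75158175-75158684, chr17:75247777-75248589 and chr17:75300795-75301311. TD and HF shared chr17:75195429-75196733, and TD alone held chr17:75105203-75105956. TD replicate 2 had peaks at 3 of the regions open in HF and closed in IFE where TD replicate 1 had none. The net count of 5 for HF over TD was 10 without TD replicate 2, 2 with equal numbers of the widest peaks and 1 with the wider 50%. For HF over IFE a net count of 9 became 3 with the wider 50%. Ltbp2, a matrix protein of the same family that does not hold TGF-β, had 9 and 10 of 11 open in TD, 6 and 7 in IFE and 11 and 10 in HF. TD and HF shared chr12:84805351-84807150 and chr12:84879844-84880698, and the third region open in HF and closed in IFE had a peak in TD replicate 2. Its net count of 3 for HF over IFE was 5 without HF replicate 2.

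Fstl1, a secreted follistatin-like protein made by mesenchymal cells, had 2 and 3 of 7 regions open in TD, 1 and 2 in IFE and 7 and 7 in HF. HF alone held 4. These were the promoter region chr16:37776995-37777583 (583 and 476 bp under peaks), chr16:37790735-37791176 inside the gene, and chr16:37752637-37753498 and chr16:37753641-37754830 upstream. The net count of 5 for HF over IFE was 2 within 10 kb of the gene, 3 with equal numbers of the widest peaks and 1 with the wider 50%. For HF over TD a net count of 4 became 2 within 10 kb and 1 with the wider 50%. Fst, the activin antagonist follistatin, had 7 and 7 of 8 open in TD, 6 and 6 in IFE and 8 and 8 in HF. Its HF-alone region was chr13:114466165-114466830 and the one shared by TD and HF was chr13:114490252-114491264.

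The BMP antagonists Nog, Chrd and Grem1 had 1 region each. Those of Nog and Chrd were open in all 6 libraries, and that of Grem1, chr2:113756708-113759174, in all but IFE replicate 1. At Grem1 the peaks covered 1767 and 1882 bp in TD, 2337 and 2438 bp in HF and 483 bp in IFE replicate 2, so the populations ranked HF, TD and IFE without overlap. The regions over the promoters of Chrd and Acvr1 went to other genes by the nearest-gene rule and are not among the 323. Bambi, a decoy receptor without a kinase, had 1 region open in all 6 libraries and 1 with a peak in HF replicate 2.

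**Figure D4:**
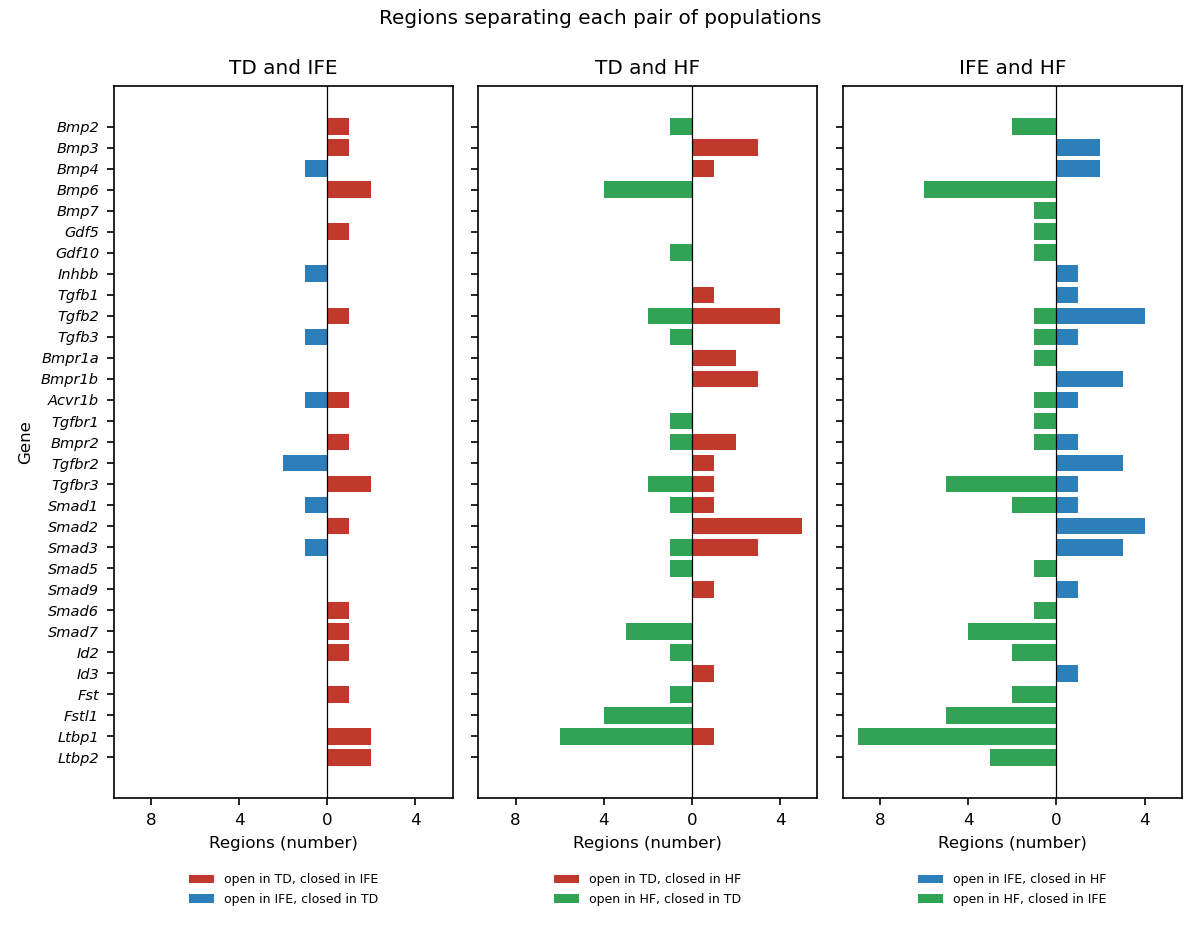
Bars give, for each of the 31 genes with at least 1 separating region (y axis), the number of regions (x axis) open in both libraries of one population and in neither of the other, with 1 panel per pair of populations. In the IFE and HF panel the longest bars on the HF side are Ltbp1 (9), Bmp6 (6), Fstl1 (5) and Tgfbr3 (5), and on the IFE side Smad2 (4) and Tgfb2 (4).

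By gene, 14 of 43 members had more TD than IFE regions and 6 the reverse, where 11.3% and 5.26% of all 15447 genes with a region did. Against HF, 12 had more TD and 12 more HF regions (17% and 14.9% of all genes), and 11 had more IFE and 17 more HF regions (18.3% and 20.6% of all genes). The 43 members held 323 regions and the 15447 genes 62802, and the shares by gene were not matched for the number of regions. The median net count was 0 over the members and over all genes in each comparison.

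Separating regions lay mostly away from listed promoters, as they did across the genome. Of the 93, 2 (2.15%) lay over a listed promoter, 54 (58.1%) elsewhere inside a gene and 37 (39.8%) outside, against 2.05%, 63.3% and 34.7% of 16293 such regions genome-wide. Both regions over a listed promoter, at Gdf10 and Fstl1, were open in HF alone. Windows were matched for 30 of the 43 genes, so a region over an unmatched start counts as inside or outside the gene. Among such genes, the separating region chr5:98854310-98856425 (TD and IFE) covers the lower-coordinate end of Bmp3. Likewise chr2:155945164-155946379 (TD and HF) covers the upper-coordinate end of Gdf5. Whether these ends are starts was not listed. Regions open in all 6 libraries had a median width of 1334 bp, those shared by TD and HF 918 bp, those shared by TD and IFE 907 bp, and those of HF alone 595 bp. Over all genes the medians were similar, at 1298, 1006, 876 and 621 bp. Replicates disagreed at 31 regions in TD (27 of them open in replicate 2), 24 in IFE and 46 in HF. These are 9.60%, 7.43% and 14.2%, against 16.2%, 11.0% and 13.2% of all regions.

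The other 44 genes listed for the pathway, of which 36 had a region, gave shares near those of the members, except between TD and HF. Of their 176 regions 27 (15.3%, beside 12.8%) were open in HF and closed in IFE and 17 (9.66%, beside 9.91%) the reverse. TD held 12 closed in IFE (6.82%) and IFE 4 closed in TD (2.27%), and TD and HF stood at 11 and 11 (6.25% each). Bmper, a secreted BMP modulator that binds its ligands, led on the HF side with 9 HF and 0 IFE regions of 20, and TD had 3 regions there closed in IFE. Eng, a TGF-β co-receptor of endothelium, had 3 HF and 0 IFE regions of 6. On the epidermal side Smurf1, a ubiquitin ligase that degrades Smads and receptors, had 3 IFE and 0 HF regions, and 3 TD and 0 HF. Msx2, a BMP target homeobox gene, had 2 IFE and 0 HF regions and 2 TD and 0 HF. Tgfbi, a TGF-β-induced matrix protein, had 2 TD and 0 HF regions, 2 IFE and 2 HF regions, and 1 TD region closed in IFE. Acvrl1, another type I receptor, had 2 IFE regions closed in TD, 1 HF region closed in TD and 1 IFE region closed in HF. Among genes with a net count of 1, those first in the alphabet were Chrdl2 and Lefty1 (TD and HF, each closed in IFE), Gdf6 (TD, closed in IFE and in HF), Bmp8b (IFE, closed in HF) and Acvr1c (IFE, closed in TD). At a net of 1 for TD over IFE, Msx1, Rgma, Smurf1, Sostdc1 and Tgfbi had the same value. Ltbp4, a latent TGF-β binding protein, had 1 HF region closed in TD and 1 closed in IFE, and 1 region each way between TD and IFE.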

How the data were processed

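ATAC-seq peak lists of 6 libraries, 2 each of touch dome, interfollicular epidermis and hair follicle cells, were used. The deposited lists hold the authors' peak starts and ends with no height or score. The submitters' processing notes name Trim Galore 0.6.7, Bowtie2 2.4.5, SAMtools 1.9, MACS2 2.2.7.1 and mm10. Their settings were not recorded in the labels or headers used, and depth is unknown. Merging limits resolution: 1 wide peak can join neighbouring narrow ones.

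Peaks overlapping by at least 1 bp were merged across libraries, and each region was assigned to the closest protein-coding gene within 50 kb (RefSeq GRCm38.p6, 21887 gene spans), which need not be the gene it regulates. Ties went to the longest overlap, then the shorter span. Populations were compared by region presence and by an exact permutation test over libraries. On simulated data 0 of 3624 library states and 0 of 604 gene assignments were wrong. Members with a separating region were described, and of the other pathway genes up to 4 for each comparison and direction with the largest net counts were named, ties in alphabetical order. Members and lists were chosen with earlier results of these data known. Python 3.11.15, numpy 2.4.6 and matplotlib 3.10.9 were used.

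Alternatives were peak cover of at least 50% of a region, merging within 100 bp, gene windows of 10 and 100 kb, assignment to every overlapped gene, the wider 50% of peaks, equal numbers (50153) of the widest peaks, leaving out each library, and a replicate block.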

Additional observations from a re-analysis of the deposited data

How the results depend on the processing

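The counts depended most on narrow peaks. With the wider 50% of each library's peaks 177 member regions remained in the table, of which 74 were open in all 6 libraries (41.8%, against 46.8% of all regions). TD held 4 not open in IFE (2.26%, against 3.53%) and IFE 2 not open in TD (1.13%, against 1.53%), so both shares fell below those of all regions. TD held 17 not open in HF (9.60%, against 6.93%) and HF 12 not open in TD (6.78%, against 6.55%). IFE held 18 not open in HF (10.2%, against 8.42%) and HF 24 not open in IFE (13.6%, against 11.1%). With that setting the antagonist group had 11 regions open in HF and not IFE and 5 in HF and not TD (16.1%, against 6.55%), and the signal-transducing Smads had 2 open in IFE and not HF and 3 in TD and not HF (10%, against 6.93%). The TD and HF difference in open regions per library reversed to 2.5 there and to 1.5 with equal numbers of the widest peaks, and the net counts of Smad2 (IFE over HF) and Tgfb2 (TD over HF) reversed to -1 and -1 with the wider 50%. With equal numbers, 18 of 306 regions were open in HF and not TD (5.88%, against 7.26%), and the antagonist group had 12 open in HF and not IFE and 6 in HF and not TD (11.8%, against 7.26%). Within 10 kb the Smads had 6 open in TD and not HF (16.2%, against 7.67%). The cause was not tested, except that stricter settings leave fewer regions by construction.

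Leaving out 1 library at a time gave 21 to 33 regions open in TD and not IFE and 10 to 18 in IFE and not TD. It gave 30 to 41 in TD and not HF, 33 to 48 in HF and not TD, 32 to 42 in IFE and not HF, and 55 to 70 in HF and not IFE. Every library left was open at 157 to 166 (48.9% to 53.0%, against 49.4% to 51.5% of all regions). Shares fell below those of all regions for TD and not IFE without TD replicate 1, and for TD and not HF without either TD replicate. They did so for IFE and not TD without TD replicate 2 (5.62%, against 6.70%) or IFE replicate 1 (3.16%, against 3.60%). The antagonist group had 20 to 23 open in HF and not IFE and 11 to 18 in HF and not TD, and the Smads 9 to 12 in IFE and not HF and 10 to 13 in TD and not HF. Differences per library ran from 0 to 23.0 (TD and IFE), -26.0 to -3.00 (TD and HF) and -32.0 to -20.0 (IFE and HF). With the replicate block the differences were 11.5, -14.5 and -26.0 by construction, with exact two-sided permutation p of 1.00, 0.5 and 0.5. The labels do not say that equal numbers mark a shared animal or day. Without heights or depth, a weak peak and a missing one cannot be told apart.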
